A study of Mus musculus with 4 samples.

Results

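The genes described here encode cytokines through which dendritic cells steer naive T cells towards different helper fates, and 9 were set by symbol: Il6, Il10, Il12a, Il12b, Il23a, Il27, Ebi3, Il15 and Tnf. A gene entered through every array probe whose RefSeq accession named it, and 8 of the 9 were found, each by 1 of the 39429 probes, while Il12b is not analysed here. The accession that the RefSeq table pairs with Il12b is not on the array, and a probe listed under another accession of it would not have been recognised. RNA was measured on 4 one-colour Agilent arrays. The Rbpj-deficient cells (RFF11, 2 arrays) carried Rbpj fl/fl alleles with the CD11c-cre transgene, and the control cells (RFF, 2 arrays) carried Rbpj fl/fl alleles alone. Marrow cells of C57BL/6 mice, labelled female and 8 weeks old, were grown for 6 days in 20 ng/mL GM-CSF, and CD11c+ cells were then isolated. Total RNA was pooled from 4 mice per genotype. Since cre comes from the promoter of Itgax, the gene of CD11c, a cell can lose Rbpj only once that promoter has been active. No array holds cre with intact Rbpj, so the effects of cre and of the loss of Rbpj cannot be told apart. The labels name no Toll-like receptor ligand or other stimulus beside GM-CSF.

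The IL-12 family is built from shared chains. IL-12 pairs the p35 chain (Il12a) with p40 (Il12b), IL-23 pairs p19 (Il23a) with the same p40, and IL-27 pairs p28 (Il27) with the EBI3 chain (Ebi3). IL-12 favours interferon-gamma-producing T helper cells, IL-23 and IL-6 favour IL-17-producing ones, IL-10 and IL-27 can restrain responses, IL-15 sustains natural killer and memory CD8 T cells, and TNF is a broad inflammatory signal. Dendritic cells at rest make little of most of them and switch them on after microbial signals. Rbpj binds DNA and turns the signal of a cleaved Notch receptor into transcription.

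Every level below is the log2 of the spot signal minus the 75th percentile of its array, so a gene at 0 was as bright as that percentile of the spots for genes. Levels of different probes are not set against each other, since probes differ in brightness for the same amount of RNA. The files checked as labelled. The brighter probe of Rbpj read 1.37 and 1.44 in RFF11 cells and 2.69 and 2.61 in RFF cells, which left 42.1% of the control signal (limma adjusted p = 0.0278). Whether that probe lies in a floxed exon is not known. Of 9 dendritic cell markers 8 were tested, among them Itgax and the class II genes, and 0 passed, with 2 above 0 and 6 below. Farthest from 0 were Ccr7, with a log2 change of -0.48 (limma adjusted p = 0.0931), and Flt3, with 0.38 (adjusted p = 0.0640). The summed signals were 823 and 770 times the 75th percentile on the RFF11 arrays and 872 and 844 on the RFF arrays. Cd74 and H2-Ab1, the brightest of the 8, weigh most in these sums and had log2 changes of -0.10 and -0.07. From 55.2% to 58.4% of spots for genes were well above background on each array.

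Of the 8 cytokine genes with a probe, 5 were well above background on all 4 arrays (Il27, Ebi3, Il6, Tnf and Il15) and entered the comparison. The other 3 (Il12a, Il23a and Il10) were well above background on no array, the flag being required of every spot of a probe, and were not tested. At a limma p of 0.05, adjusted by Benjamini-Hochberg across all 17967 tested genes, none of the 5 rose and none fell in RFF11 cells. Array targets without a gene name were tested too and count among these genes. Over all genes 338 passed, or 1.88%, with 1.04% higher and 0.84% lower in RFF11 cells, so a count of 0 among 5 genes lies near the background. At an unadjusted p under 0.05 there was 1 member, Il15, against 24.1% of all genes. The arrays of the genotypes did not overlap for 4 of the 5 members, and for 59.1% of all genes tested. The median log2 change was -0.10 over the 5 members, with 2 above 0 and 3 below, and -0.01 over all genes. Whether the 2 arrays of each genotype hold separate RNA pools is not stated, and the p-values therefore reflect only how far these arrays spread, which may be technical. An exact permutation test over 2 arrays against 2 cannot go below p = 0.333, two-sided. The arrays measure RNA of whole samples, so fewer cells that make a cytokine and less RNA in each such cell cannot be told apart.

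**Figure D1:**
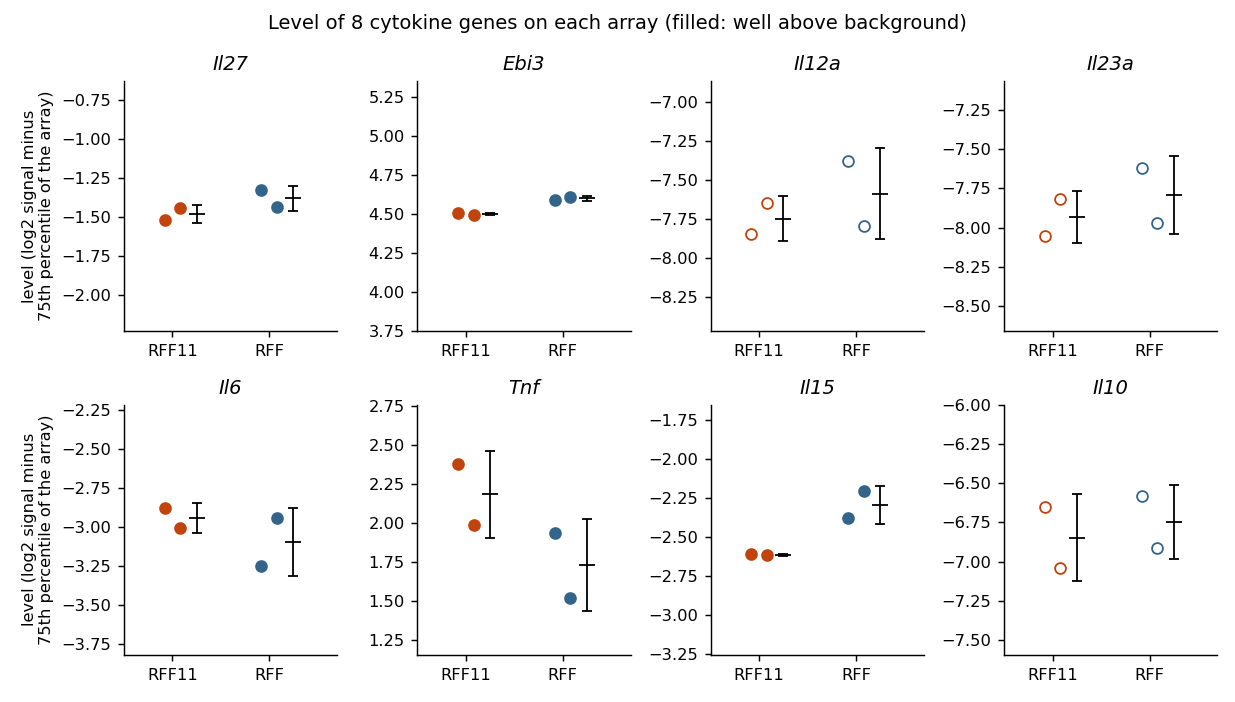
Level of each of the 8 cytokine genes with a probe, as log2 signal minus the 75th percentile of the array, for 2 RFF11 and 2 RFF arrays. Points are arrays, filled where the probe was well above background, bars are the mean and SD of 2 arrays, and each vertical axis spans the same number of log2 units. Tnf lay highest on RFF11 replicate 1 at 2.38, Il15 was lower on both RFF11 arrays, and Il12a, Il23a and Il10 have open points throughout.

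Both chains of IL-27 were well above background, and neither passed the test. Ebi3, the chain that resembles a soluble receptor, read 4.51 and 4.50 on the RFF11 arrays and 4.59 and 4.61 on the RFF arrays. The 2 arrays of each genotype lay within 0.02 of each other and the genotypes were separated by a gap of 0.08. The log2 change was -0.10 (SE 0.05, 95% interval -0.24 to 0.05, limma adjusted p = 0.335), which is 93.4% of the control signal. Under the model of the fit, the interval excludes a fall of more than 0.24 on the log2 scale for this probe. The SDs of the Ebi3 arrays were 0.007 in RFF11 cells and 0.015 in RFF cells. The width of the interval therefore rests largely on the spread of other genes, on which the fit draws. Il27, which encodes the p28 chain, read -1.52 and -1.44 on the RFF11 arrays and -1.32 and -1.44 on the RFF arrays. The second replicates of the genotypes were almost level, with a gap of 0.00158 between them. Its log2 change was -0.10 (SE 0.07, 95% interval -0.29 to 0.10, adjusted p = 0.457), and without 1 array it ran from -0.15, without RFF replicate 2, to -0.04, without RFF replicate 1.

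RNA for the p35 chain of IL-12 and the p19 chain of IL-23 was not measurable above background in either genotype. Il12a, the p35 chain, read -7.85 and -7.65 on the RFF11 arrays and -7.38 and -7.79 on the RFF arrays. Il23a, the p19 chain, read -8.05 and -7.81 on the RFF11 arrays and -7.62 and -7.97 on the RFF arrays. The dimmest spots flagged as well above background on these arrays stood between -5.95 and -5.50, so both genes lie under the range that the arrays resolve and the order of their values carries no information. Before background subtraction, the Il12a spot gave 61.5 and 54.5 units of pixel brightness on the RFF11 arrays and 62.5 and 70.5 on the RFF arrays. The Il23a spot gave 80.5 and 67.5 units on the RFF11 arrays and 76.0 and 72.5 on the RFF arrays. The 153 negative control spots of each array had medians of 62.5 to 66.0 units on the RFF11 arrays and 65.0 to 68.0 on the RFF arrays. For Il12a, 77.1% and 88.9% of the negative controls on the RFF11 arrays were at least as bright, and 81.0% and 15.0% on the RFF arrays. For Il23a those shares were 2.61% and 28.1% on the RFF11 arrays and 15.7% and 13.1% on the RFF arrays. No fold change is given for either gene, and a difference below the detection limit of the array would not have been seen.

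Il10, which encodes the main cytokine that restrains dendritic cells and the T cells they prime, lay under the limit of detection. Its probe is printed at 10 places on the array, with 10 spots used on each RFF11 array, and 9 and 10 on the RFF arrays. The mean levels were -6.65 and -7.04 on the RFF11 arrays and -6.58 and -6.92 on the RFF arrays. The dimmest spots flagged as well above background stood at -5.95 and -5.76 on the RFF11 arrays and -5.50 and -5.82 on the RFF arrays. The genotypes overlapped. On each array the spots spread with SDs of 0.59 to 0.70, which describe single spots and not the error of an array mean. Only 1 spot was well above background, on RFF11 replicate 1. A weaker flag of the same software, for a signal positive and distinct from background, was carried by all spots on both first replicates and by a share of 0.8 of the spots on both second replicates. The median spot gave 87.0 and 81.3 units of brightness on the RFF11 arrays and 88.0 and 86.0 on the RFF arrays, and at most 4.58% of the negative controls of an array were as bright. The 10 spots thus held a weak signal below the detection limit in both genotypes, for which no difference was detectable.

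Tnf had the largest change of the 5 members and the widest interval. Its probe read 2.38 and 1.99 on the RFF11 arrays and 1.94 and 1.52 on the RFF arrays. Both RFF11 arrays lay above both RFF arrays, by a gap of only 0.05 between RFF11 replicate 2 and RFF replicate 1. The mean level was 2.18 ± 0.28 in RFF11 cells and 1.73 ± 0.29 in RFF cells (SD, n = 2 each), a log2 change of 0.45 or 1.37-fold (SE 0.21, 95% interval -0.12 to 1.03, limma adjusted p = 0.279). The interval reaches from 0.921-fold to 2.04-fold, so neither no change nor a doubling is excluded. In absolute size 9.71% of all genes tested changed more. Without 1 array the log2 change ran from 0.25, without RFF replicate 2, to 0.66, without RFF replicate 1, and it stood at 0.65 without RFF11 replicate 2 and at 0.26 without RFF11 replicate 1.

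The spots of Tnf show the error of the probe apart from the spread between arrays. This probe too is printed at 10 places, and all 10 spots were well above background on every array. Spots of an array spread with SDs of 0.05 and 0.04 on the RFF11 arrays and 0.04 and 0.05 on the RFF arrays. Replicate 1 lay above replicate 2 in both genotypes, by 0.39 in RFF11 cells and by 0.41 in RFF cells. Spots ran from 2.32 to 2.45 on RFF11 replicate 1 and from 1.92 to 2.05 on RFF11 replicate 2, against 1.84 to 1.98 on RFF replicate 1 and 1.42 to 1.60 on RFF replicate 2. The spots of RFF11 replicate 2 and RFF replicate 1 overlapped, whereas arrays of the same genotype shared none of their range. The difference between arrays of a genotype was therefore several times the spread of spots and close to the change between genotypes, and reading the probe 10 times does not narrow it.

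**Figure D2:**
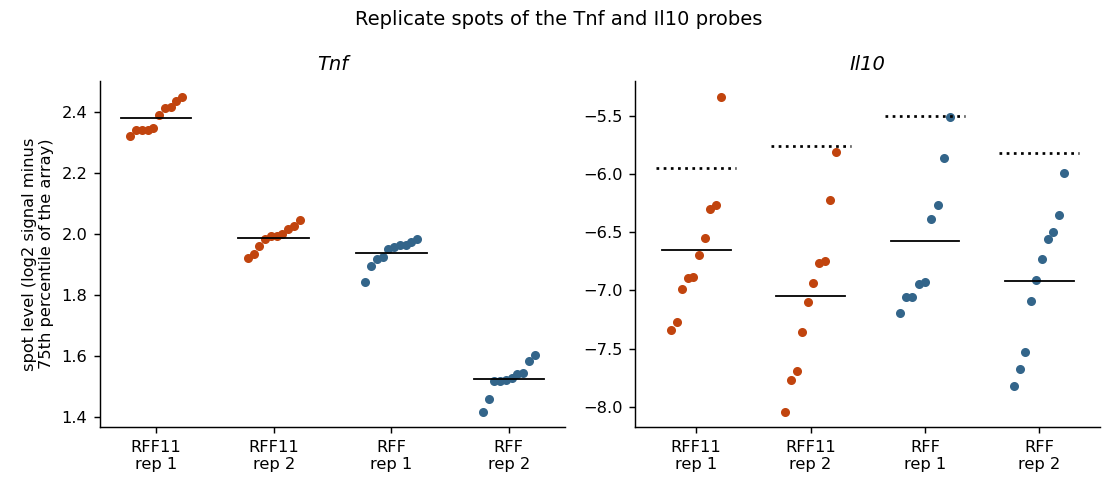
Levels of the single spots of the Tnf probe (left) and the Il10 probe (right) on each array, as log2 signal minus the 75th percentile of the array, sorted within each array. Solid lines are array means and dotted lines mark the dimmest spot flagged as well above background on that array. Tnf spots are tight on each array and arrays of a genotype lie apart, and Il10 spots scatter under the dotted lines apart from 1 spot on RFF11 replicate 1.

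Among genes well above background on all 4 arrays, the pattern of Tnf was followed most closely by Mdm4, an inhibitor of p53, and by the long noncoding RNA Kcnq1ot1. After the mean of each gene was taken off, the root mean square difference from Tnf over the 4 arrays was 0.0559 for Mdm4 and 0.0581 for Kcnq1ot1, out of 12287 named genes searched. With 4 arrays this likeness is a description only. Neither gene passed the test, with log2 changes of 0.49 (adjusted p = 0.197) for Mdm4 and 0.56 (adjusted p = 0.228) for Kcnq1ot1.

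Il15, whose product is held on the surface of dendritic cells by its receptor chain and shown to natural killer and CD8 T cells, was the member nearest to the threshold. It read -2.61 and -2.62 on the RFF11 arrays and -2.38 and -2.21 on the RFF arrays. The RFF11 arrays were all but equal, and both lay under both RFF arrays by a gap of 0.23. The mean was -2.61 ± 0.01 in RFF11 cells and -2.29 ± 0.12 in RFF cells (SD, n = 2 each), a log2 change of -0.32 (SE 0.08, 95% interval -0.54 to -0.10), or 80.1% of the control signal. The interval, which is not adjusted for the number of genes, excludes 0, and the limma adjusted p over all genes was 0.124. Without 1 array the change ran from -0.41 to -0.24. In absolute size 17.2% of all genes changed more.

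Il6, the cytokine that with TGF-beta directs T cells towards IL-17 production, read -2.88 and -3.01 on the RFF11 arrays and -3.25 and -2.94 on the RFF arrays. RFF replicate 2 lay between the RFF11 arrays, so the genotypes overlapped. The log2 change was 0.15 (SE 0.13, 95% interval -0.21 to 0.51, limma adjusted p = 0.518), and without RFF replicate 1 it was -0.00287. A rise of more than 1.42-fold lies outside the interval of this probe.

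**Figure D3:**
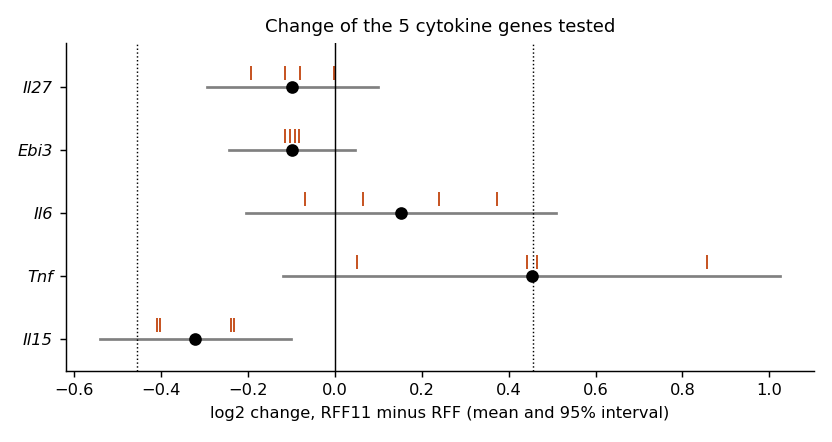
Log2 change of the 5 cytokine genes tested, RFF11 minus RFF. Black points are the differences of means, grey lines the 95% intervals of the limma fit, coloured ticks the differences of the single arrays in every combination of 1 RFF11 and 1 RFF array, and dotted lines the smallest absolute change that passed the threshold among all genes, 0.456. All 5 points lie inside the dotted lines, and the interval of Il15 alone lies on 1 side of 0.

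The smallest absolute log2 change among the genes that passed the threshold was 0.456, and all 5 members changed by less than that, Tnf by 0.453. That value describes the calls of this fit and is no limit of detection, since a call depends on the SE as well, which was 0.21 for Tnf. The intervals leave room for changes of up to 2.04-fold in Tnf and bound those in Ebi3 and Il27 more closely.

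The promoter of Il6 is shown because it holds the letters that Rbpj is known to bind and the gene was well above background. RefSeq sequence of GRCm38.p6 was available for the promoters of 5 members, 3 of them tested (Il6, Tnf and Ebi3), and the 250 bases before each start were searched on both strands for TGGGAA, the core of the Rbpj motif, for GGG, any 3 bases and TTCC, a form of the kappaB motif bound by NF-kappaB, and for TATAAA. In the Il6 promoter, chr5:30012864-30013113 on the plus strand, the 2 matches overlap. The kappaB-like match GGGATTTTCC covers the bases 44 to 35 before the start, and the Rbpj core lies on the minus strand at the bases 38 to 33. The capitals mark the stretch that both cover together.
Il6: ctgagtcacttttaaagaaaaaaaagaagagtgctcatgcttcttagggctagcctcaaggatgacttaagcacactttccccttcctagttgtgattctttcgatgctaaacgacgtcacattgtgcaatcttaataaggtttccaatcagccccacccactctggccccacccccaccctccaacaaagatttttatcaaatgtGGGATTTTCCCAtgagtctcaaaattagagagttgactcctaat
The promoter of Tnf, chr17:35202008-35202257 on the minus strand, is shown for comparison, as the member with the largest change. It holds neither of these matches in this window and has TATAAA at the bases 29 to 24 before the start.
Tnf: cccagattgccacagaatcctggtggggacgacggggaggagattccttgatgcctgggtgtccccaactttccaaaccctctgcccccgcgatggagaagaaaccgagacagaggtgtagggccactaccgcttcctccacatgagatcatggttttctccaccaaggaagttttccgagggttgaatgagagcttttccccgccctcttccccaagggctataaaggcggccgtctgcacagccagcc
Ebi3 and Il12b hold none of the 3 motifs in their windows. Of the 2 Il12a promoters in the table, 1 holds the Rbpj core, on the plus strand at the bases 62 to 57 before the start, and the other holds none of the 3 motifs. The Il12a probe was below detection. Of 32851 promoters of the same length in the table, 21.6% hold the Rbpj core, 4.65% the kappaB-like motif and 12.4% TATAAA. A match is a match of letters only, and binding was not measured here.

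The receptor chains of these cytokines lay mostly a little lower and none passed. Of 13 chains 12 were tested, 0 rose, 0 fell, 10 lay below 0 and the median log2 change was -0.15, against -0.01 over all genes. The lowest was Il27ra, the chain particular to the IL-27 receptor, which read -3.86 and -3.96 on the RFF11 arrays and -3.48 and -3.41 on the RFF arrays, or -0.47 on the log2 scale (SE 0.07, limma adjusted p = 0.0640). With normexp background correction its change was -0.26.

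The kinases, transcription factors and other regulators around the cytokines did not pass either. Of 12 Janus kinases, STAT factors and SOCS inhibitors, through which the receptors signal, all were tested and 0 passed (median -0.10), the farthest from 0 being Stat4, the factor activated by IL-12, at -0.32 (adjusted p = 0.179). Of 21 factors and adaptors known to switch these cytokine genes on, such as NF-kappaB subunits, interferon regulatory factors and Myd88, 20 were tested and 0 passed (median -0.06). The farthest was the NF-kappaB subunit Nfkb2 at -0.33 (adjusted p = 0.0689), which passed at 0.0153 with a prior with trend and robust settings. Another 10 genes act on the release, RNA stability or NF-kappaB control of these cytokines, and not all of them limit the cytokines. Among them are Adam17, which releases TNF from the membrane, and Zfp36, which destabilises Tnf RNA. All 10 were tested and 0 passed (median 0.06). Nfkbiz, an atypical inhibitor of NF-kappaB that assists transcription of Il6, was the farthest at 0.39 (adjusted p = 0.126).

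Among 26 other cytokines that steer T cells, 15 were tested, 2 rose, 2 fell and 11 did not pass. Over all genes tested 1.88% passed. The list was chosen with earlier results of these data known, so its count is a description only. Of the 15, 13 were well above background on all 4 arrays, with 7 above 0, 6 below and a median log2 change of 0.09, against -0.01 over all genes detected so. The other 2, Il1a and Il33, entered through RFF11 cells alone and are left out of that median. Il1b, the precursor of interleukin-1 beta, and Tgfb3, a transforming growth factor, were the 2 that rose. Tgfb3 read -1.56 and -1.28 on the RFF11 arrays and -2.81 and -2.91 on the RFF arrays, or 1.44 more on the log2 scale (SE 0.12, limma adjusted p = 0.0379), and Tgfb3 was 2.72-fold higher. Il1b read 0.42 and 0.13 on the RFF11 arrays and -0.93 and -0.94 on the RFF arrays, 1.21 more on the log2 scale (adjusted p = 0.0379). Of the 11 that did not pass, Ltb was nearest to the threshold. Ltb read 3.65 and 3.95 on the RFF11 arrays and 2.78 and 2.86 on the RFF arrays. Its log2 change was 0.98 (SE 0.12, limma adjusted p = 0.0530). Tnfsf15, which encodes TL1A, a ligand that costimulates effector T cells, fell. It read -3.19 and -3.01 on the RFF11 arrays and -2.02 and -1.81 on the RFF arrays, a log2 change of -1.19 (SE 0.11, adjusted p = 0.0379), and Tnfsf15 of RFF11 cells stood at 0.439 times the control signal. Tnfsf4, the OX40 ligand, fell too. It read -2.87 and -2.99 on the RFF11 arrays and -2.15 and -1.94 on the RFF arrays, a log2 change of -0.89 (SE 0.10, adjusted p = 0.0477), or 0.541 times the control signal. For all 4 genes the arrays of the genotypes were separated by more than the arrays of a genotype differed.

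All 4 calls were lost when any 1 of the 4 arrays was left out, with log2 changes of 1.07 to 1.35 for Il1b, 1.30 to 1.58 for Tgfb3, -1.30 to -1.08 for Tnfsf15 and -0.99 to -0.78 for Tnfsf4, and adjusted p-values of 0.120 to 0.183. Of 10 neutrophil markers 9 were tested, and 7 lay above 0 and 2 below, Elane and Mmp8, each at -0.14. Ngp and Mpo passed the threshold as higher and none passed as lower. The summed signal of the neutrophil markers was 87.8 and 81.3 times the 75th percentile on the RFF11 arrays and 63.9 and 63.4 on the RFF arrays, with a median log2 change of 0.63. Csf3r and S100a9, the brightest of the 9, weigh most in this sum and had log2 changes of 0.22 and 0.85. Of 10 mast cell and basophil markers 6 were tested, all 6 lay above 0 with a median of 0.63, and Hdc passed. Their summed signal was 2.36 and 2.04 on the RFF11 arrays and 1.42 and 1.60 on the RFF arrays, while Fcer1a and Ms4a2, chains of the IgE receptor, were among those not tested. The part of the neutrophil and of the mast cell and basophil markers in the changes of these cytokines was not tested. Of 10 monocyte and macrophage markers 9 were tested, with Marco higher, Fcgr1 and Fn1 lower, and summed signals of 268 and 271 on the RFF11 arrays and 286 and 299 on the RFF arrays. Of 10 markers of lymphocytes and natural killer cells 5 were tested and Klrb1c rose, with 3 above 0, 2 below and a median of 0.13. Their summed signals were 3.67 and 4.09 on the RFF11 arrays and 4.29 and 4.23 on the RFF arrays. Cd4, the brightest of the 5, weighs most in these sums and had a log2 change of -0.25. Of 8 stromal markers 3 were tested and 0 passed.

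**Figure D4:**
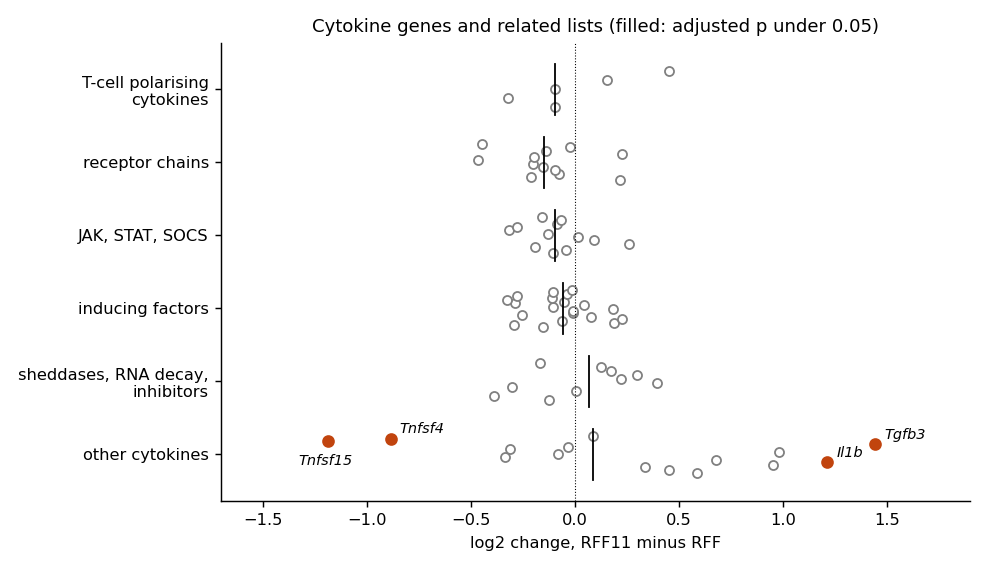
Log2 change, RFF11 minus RFF, of the tested members and of 5 related gene lists. Each circle is a gene, filled and named where the limma adjusted p was under 0.05, black bars are list medians over genes well above background on all 4 arrays, and the dotted line is 0. The 5 members stay between -0.32 and 0.45, while Tnfsf15 and Tnfsf4 among the other cytokines lie far below 0 and Il1b and Tgfb3 far above.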

How the data were processed

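Per the labels, 150 ng of total RNA per sample was labelled with Cy3. Intensity was read and background-subtracted with Agilent Feature Extraction 10.7.1.1, per the file headers and the submitters' processing notes, and flags come from the same software. The authors also deposited log2 values, whose making is not given in the sources used here. Against the scanner signal, these had each array scaled and each probe's median over the 4 arrays taken off (column medians -0.0340 to 0.0531), run in the same direction and served as an alternative only. All 4 arrays lay on 1 slide.

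From the intensity, log2 values minus the 75th percentile of each array were computed, outlier spots (127 to 176 per array) left out and spots of a probe averaged. No spot was saturated (0 on each array). Probes entered if every spot was well above background on both arrays of RFF11, of RFF or of both, each gene was represented by its brightest probe, and genotypes were compared with limma 3.58.1 in R 4.3.3. Of 39429 probes, 26055 were named through accessions in RefSeq annotation of GRCm38.p6 and 13374 were not. Unnamed probes that passed the filter were tested by array target, and every share of all genes includes them. The array annotation is of another build, mm9, so no probe coordinates are given, and those of promoters are of GRCm38.p6. The number of arrays limits the precision. SE and intervals are those of the moderated fit. The comparison was also run on simulated data with independent errors, which cannot show how the RNA of these arrays was pooled.

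Named genes were all members, Rbpj and Itgax, each list's genes past the threshold or else the one farthest from 0, and the 2 genes most like the member farthest from 0. Ccr7, Flt3, Cd74, H2-Ab1, Mpo, Ngp, Elane, Mmp8, Csf3r, S100a9, Marco, Fcgr1, Fn1, Klrb1c, Cd4, Hdc, Fcer1a, Ms4a2, Ltb, Il1a and Il33 were picked with their values in view. The members, lists and rules were chosen with earlier results of these data known.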

Additional observations from a re-analysis of the deposited data

How the results depend on the processing

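The 13 alternatives called 0 of the members they tested in limma, with 0 to 2 at an unadjusted p under 0.05, and a fit with every probe as its own feature also called 0. Directions held for Il27, Ebi3, Il15 and Tnf in all 13 and for Il6 in 12, the exception being -0.00287 without RFF replicate 1, in a range of -0.00287 to 0.31 over single arrays left out. The lowest adjusted p of a member was 0.0697, for Il15 with normexp background correction (log2 change -0.28), in a range of 0.0697 to 0.421 for that gene. With the replicate number as a block the SE of Tnf was 0.06, against 0.21 without it. Its limma p was then 0.00504 unadjusted and 0.123 adjusted. Over all genes tested, same-numbered arrays correlated at -0.0472 in their deviations, so the numbers show no general pairing. The block called 0 of 17967 genes (3677 at an unadjusted p under 0.05) and 0 of the 69 tested genes of the 5 lists (26 unadjusted), against 338 and 4. Normexp called 896 genes and 8 list genes, a prior with trend and robust settings 1548 and 17, Nfkb2 among them, and no filter on dim probes 0 of 32494 (3654 unadjusted) and 0 list genes (19 unadjusted). With 1 array left out, 0 to 1 genes (2977 to 3505 unadjusted) and 0 list genes (19 to 25 unadjusted) were called; the lone array of a genotype was then assumed to vary like the other group. Median scaling called 6 list genes, and the deposited values and the filter on all 4 arrays called 5 each. The causes were not tested. Files without mean spot signal made normexp run on the median. With the weaker detection flag, required of every spot, 5 members were again detected on all 4 arrays. Signal over background limits Il12a, Il23a and Il10.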
